A study of Mus musculus with 2 samples.

Results

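Deeply captured phagocytes of the crushed mouse optic nerve that carry little Lpl, the transcript of the secreted enzyme lipoprotein lipase, are described here. A cell was taken when it came from the injured library, had at least 5000 UMIs (molecular tags that count captured transcripts), had Lpl under 500 CPM (UMIs of a gene scaled to a fixed total per cell), and had a UMI in fewer than 2 of the genes Cd3e, Cd3d, Cd3g, Trac, Trbc1 and Trbc2. Of the 778 cells of the series, 88 met this rule; they were thus chosen by their measured Lpl, depth and T cell genes. The injured library held 727 cells, of which 144 had at least 5000 UMIs. Of these, 53 had more Lpl and 3 carried T cell genes. The uninjured library held 51 cells, of which 4 were this deep.

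Both groups were Wildtype 129S1/SvlmJ mice of both sexes, aged 10 weeks when the cells were taken. In the injured group the optic nerve had been crushed at 8 weeks of age, 2 weeks earlier, and in the uninjured group the nerves were intact. The source label gives day 56 for both groups. Each group had 1 library, and how many animals it pools was not stated in the labels. Cells are not replicates, so no test was made, and every interval is an exact 95% interval that covers counting error only. In levels summed over cells, fewer cells of a kind and less RNA per cell cannot be told apart.

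Macrophages and microglia of an injured nerve clear myelin and dead cells, and they differ in how far they present antigen or store lipid. Class II molecules show peptides of engulfed protein to CD4 T cells. The invariant chain Cd74 guards their groove, and the coactivator Ciita switches their genes on through a shared promoter module. Macrophages of the meninges and vessel walls, called border-associated macrophages, are known for Mrc1, Cd163 and Lyve1. Debris-filled, lipid-laden phagocytes are known for Gpnmb, a glycoprotein of lysosomal membranes, and for fatty acid binding proteins.

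The 88 cells held 1611196 UMIs, 43.6% of those of the injured library, with a lowest, median and highest of 5329, 17797 and 45339 per cell. A count of 0 in them allows a level of up to 1.86 CPM. The 53 Lpl-high cells, set beside them because they passed the same limits on depth and T cell genes, held 1324432 UMIs with a median of 25349. No doublet caller was run, and 10 of the 88 cells had over 30000 UMIs. Lpl chose the cells and is no finding. Of the 88 cells 35 had no Lpl UMI, the highest Lpl level inside the limit was 498 CPM and the lowest outside was 501 CPM. The shallowest cell inside had 5329 UMIs and the deepest outside had 4679.

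The label of phagocytes was checked against the 3 chains of C1q, the starter of the complement cascade that microglia and tissue macrophages make. All 3 chains had a UMI in 84 of the 88 cells, and C1qa had a median of 6881 CPM. Of the genes given as markers, Cd74 was seen in 70 cells, Gpnmb in 70 and H2-Aa in 37. Free RNA was gauged in the 5 injured cells of any depth with T cell genes, at a median of 5387 UMIs. Cd74, H2-Aa, H2-Ab1, Gpnmb, Apoc1, Lyz2, Ms4a7, Mrc1 and C1qa had a UMI in 0 of those 5 cells. Apoe had a UMI in 5 of 5, with 23 UMIs among 21770, and Ctsd in 5 of 5 with 9. Lgals3 had a UMI in 3 of 5, with 5 UMIs or 230 CPM, and H2-Eb1, Fabp5, Spp1 and Sparc had 1 UMI each in 1 of 5.

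The promoters of 3 class II genes are shown because a few of the 88 cells held most of the class II transcripts and because each promoter holds the same motif, CTGATTGG, a form of the Y box of these promoters. Each sequence is the 150 bases before the RefSeq start site in build GRCm38.p6, written 5′ to 3′ on the strand of the gene, with the motif in capitals. H2-Aa encodes the alpha chain of H2-A and its sequence lies at chr17:34287824-34287973 on the minus strand. H2-Eb1 encodes the beta chain of H2-E, at chr17:34305717-34305866 on the plus strand. H2-Oa encodes the alpha chain of H2-O, which restrains peptide loading, at chr17:34092229-34092378 on the plus strand.
H2-Aa: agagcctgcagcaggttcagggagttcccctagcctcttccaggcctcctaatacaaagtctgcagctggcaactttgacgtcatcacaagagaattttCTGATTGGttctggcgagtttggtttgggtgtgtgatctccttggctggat
H2-Eb1: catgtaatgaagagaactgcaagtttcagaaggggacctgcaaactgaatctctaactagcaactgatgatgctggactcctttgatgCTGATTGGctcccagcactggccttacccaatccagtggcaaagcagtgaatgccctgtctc
H2-Oa: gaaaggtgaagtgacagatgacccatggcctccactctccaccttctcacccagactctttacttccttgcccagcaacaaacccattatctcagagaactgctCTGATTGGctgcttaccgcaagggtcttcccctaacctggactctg

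The motif began 51 bases before the start site of H2-Aa, 62 before that of H2-Eb1 and 46 before that of H2-Oa. Searched on both strands, it lay in this window in 3 of the 7 class II genes with a promoter entry and in 1039 of all 32851 promoters, or 3.16%. A match describes these letters and does not show binding.

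Clustering of the 88 cells alone gave 3 clusters. Cluster 1 had 35 cells (39.8%) and a median of 19952 UMIs, cluster 2 had 29 cells (33.0%) and 16346 UMIs, and cluster 3 had 24 cells (27.3%) and 15541 UMIs. The genes that lead a cluster were used to make it, so their levels are a description. In short, cluster 1 was rich in Gpnmb and Fabp5, cluster 2 in Sparc and Cst7, and cluster 3 was poor in Apoc1 and held most of the cells rich in class II.

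**Figure D1:**
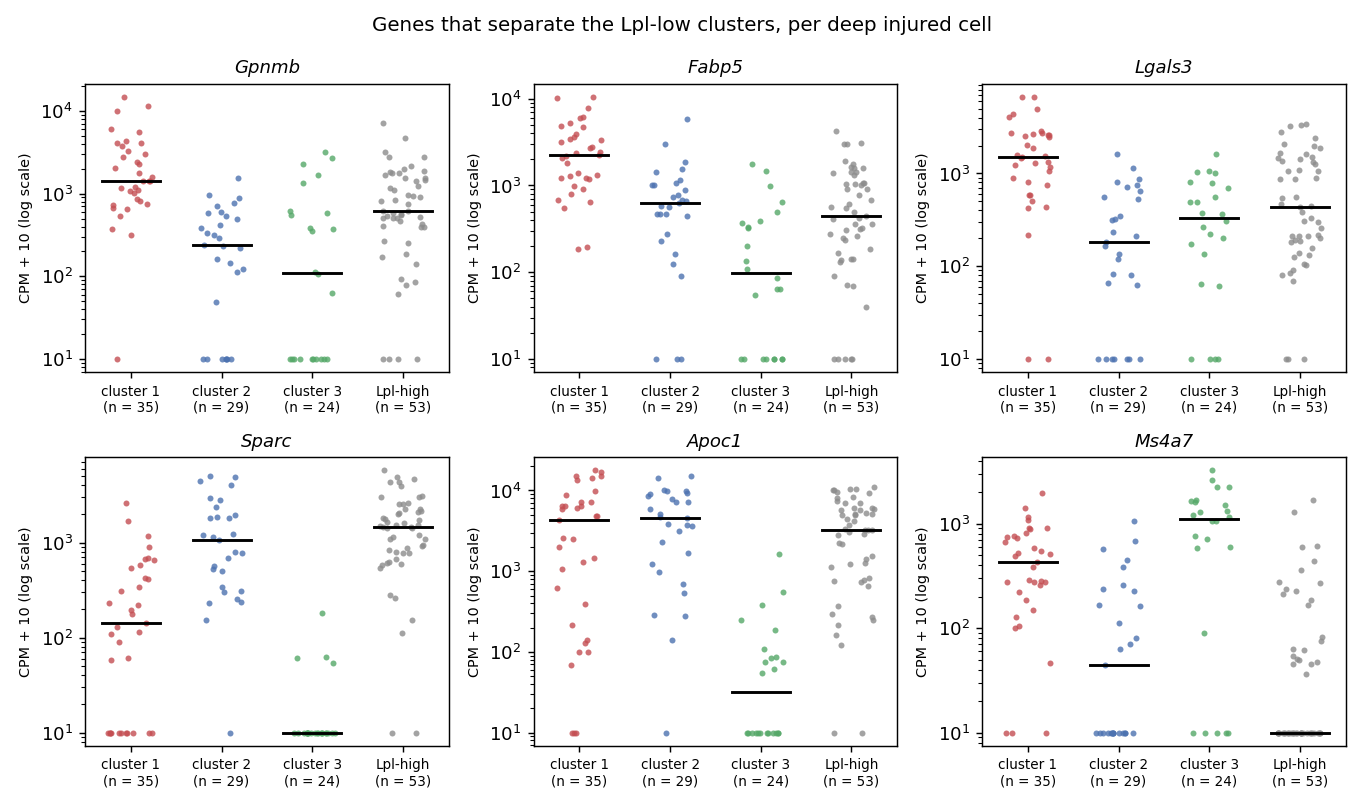
Level of 6 genes in each deep injured cell (CPM with 10 added, log axis), for clusters 1, 2 and 3 of the Lpl-low cells (35, 29 and 24 cells) and the 53 Lpl-high cells; each point is a cell and each bar a median. Gpnmb, Fabp5 and Lgals3 have their highest cluster median in cluster 1, Sparc in cluster 2 (1056 CPM) and Ms4a7 in cluster 3 (1100 CPM), where the Apoc1 median is 22.2 CPM.

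Class II transcripts were spread very unevenly. The summed level of Cd74, H2-Aa, H2-Ab1 and H2-Eb1, called the class II core here, had a median of 517 CPM over the 88 cells. It was under 1000 CPM in 50 cells, 15 of which had no core UMI, and between 1000 and 20000 CPM in 25. The other 13 cells, 14.8% of the 88 (interval 8.11 to 23.9), lay above 20000 CPM and are called class II-high here. In these 13 cells the core made up 3.10% of the UMIs at the lowest, 6.65% at the median and 12.8% at the highest. Together they held 84.9% of the 13587 core UMIs. The limit was set after the values were seen and marks a range, not a cell type. The highest cell below it had 17709 CPM, the lowest above it 31049 CPM, and 4 cells lay between 10000 and 40000 CPM. Among the 53 Lpl-high cells the median was 177 CPM and the highest value 12241 CPM, so 0 cells reached the limit.

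**Figure D2:**
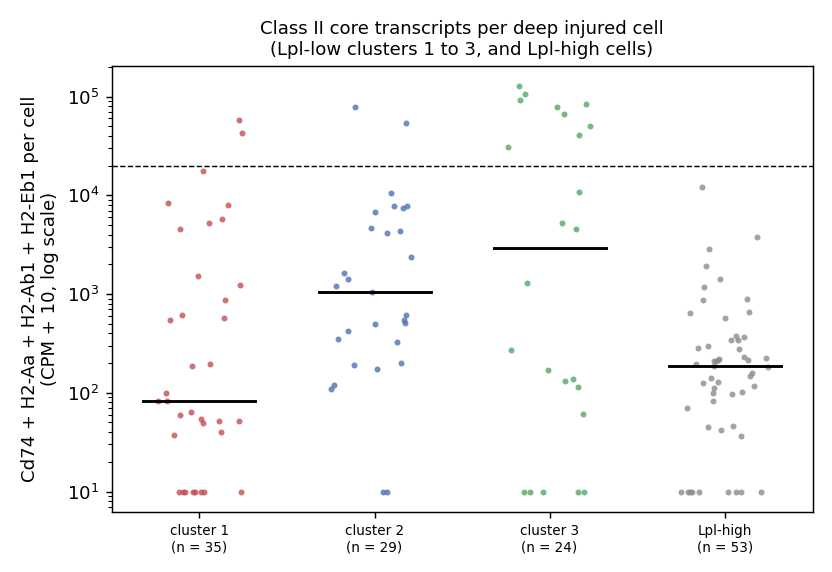
Class II core (summed CPM of Cd74, H2-Aa, H2-Ab1 and H2-Eb1, with 10 added, log axis) in each cell of clusters 1, 2 and 3 of the Lpl-low cells and in the 53 Lpl-high cells; bars are medians and the dashed line is the limit of 20000 CPM. Above the line lie 2, 2 and 9 cells of clusters 1, 2 and 3, and 0 Lpl-high cells.

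The 4 core genes went together from cell to cell. Over the 88 cells, which share 1 library, Spearman's rho was 0.97 between H2-Aa and H2-Eb1 and 0.87 between H2-Aa and Cd74. H2-Eb1 ranged from 4118 to 22317 CPM in the 13 class II-high cells, with a median of 12177 CPM, and reached at most 2302 CPM in the other 75 cells. Cd74 ranged from 14836 to 67790 CPM in the 13 cells, with a median of 34531 CPM, and reached at most 8854 CPM in the others. Neither gene overlapped between these sets. The limit on the sum of the 4 core genes helped to fix this, and also the shares that follow, which are a description. The 13 cells held 94.4% of the H2-Eb1 UMIs, 89.0% of those of H2-Aa, 84.2% of those of H2-Ab1 and 81.0% of those of Cd74.

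The genes that load class II molecules or control them varied in how they were spread. H2-DMa and H2-DMb1, the chains of the H2-M peptide exchanger, were seen in 63 and 62 of the 88 cells, and the class II-high cells held 45.7% and 52.3% of their UMIs. Ciita had 25 UMIs in 12 cells, 22 of them in 9 class II-high cells. H2-DMb2, a second beta chain of H2-M, had 25 UMIs in 9 cells and H2-Oa 29 UMIs in 13 cells. Of these, 20 and 18 lay in class II-high cells. For H2-DMb2, 19 of the 20 lay in the 3 class II-high cells with under 10 Apoe UMIs, described below. H2-Ob, the beta chain of H2-O, had 31 UMIs in 17 cells, 10 of them in class II-high cells. The class II-high share was thus 88% for Ciita and 80% for H2-DMb2, and lower for H2-DMa, H2-DMb1, H2-Oa and H2-Ob. The 4 core genes chose the class II-high cells, so their own high shares were built in and are no yardstick for these genes.

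Against the Lpl-high cells, 5 of the 10 class II genes passed 2-fold upward on log2(CPM + 10) and 0 downward. The median log2 ratio of the list was 1.16, beside 0.01 over all 8712 genes compared. Across all of these, 88 genes (1.01%) passed 2-fold upward and 127 (1.46%) downward. The list summed to 8810 CPM (8666 to 8956) in the Lpl-low and 682 CPM in the Lpl-high cells. H2-Eb1 was at 1423 against 19.6 CPM, a ratio of 72.5 (49.3 to 111), and H2-Aa at 1130 against 19.6 CPM, a ratio of 57.6 (39.2 to 88.4). Cd74 was at 4530 CPM (4427 to 4635) against 343 CPM, a ratio of 13.2 (12.0 to 14.6). These sums rest on few cells: without the 13 class II-high cells the list summed to 1631 CPM, and the log2 ratio fell from 5.60 to 1.75 for H2-Eb1 and from 3.69 to 1.46 for Cd74. At an equal depth of 5000 UMIs, H2-Aa had a UMI in 36.4% of the Lpl-low and 5.66% of the Lpl-high cells, and Cd74 in 62.5% and 47.2%, so the gap in the share of cells was wider for H2-Aa than for Cd74.

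The 13 class II-high cells had fewer transcripts of lysosomal and lipid-handling genes than the other 75. On mean CPM with 50 added, 141 of 5651 genes (2.5%) passed 2-fold upward and 92 (1.63%) downward. Ctsd, the aspartic protease cathepsin D, had a median of 1022 CPM against 10499 CPM, and Ctsl, the cysteine protease cathepsin L, 265 against 1725 CPM. Cd63, a tetraspanin of late endosomes, had a median of 265 against 2554 CPM. Of 19 lysosomal genes compared, 10 were at least 2-fold lower and 0 higher, with a median log2 fold of −1.01. The 11 lipid-laden genes had a median of −1.13, with 6 lower and 0 higher. Gpnmb had at least 2 UMIs in 3 of the 13 cells and in 62 of the 75. These 13 cells were shallower, with a lowest, median and highest of 7921, 12524 and 22513 UMIs against a median of 18785, and the part of depth in these values was not tested.

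In mean level, chemokine and monocyte genes were higher in the class II-high cells, each in some of the 13. Ccr2, the receptor that draws monocytes out of blood, had 38 of its 40 UMIs in 7 of these cells, with 2 UMIs among the other 75. Of 5 monocyte genes compared 3 were higher and 0 lower (median 2.15), and of 10 chemokine genes 6 were higher and 1 lower (median 1.73). Ccr2, Cxcl2, Ccl2 and Ccl12 passed the detection filter only through the class II-high cells, so both counts are tilted upward. Of 17 immediate early and stress genes, which tissue dissociation can also induce, 15 were higher and 0 lower (median 1.32). Of the chemokines, Cxcl2 was seen in 5 of the 13 cells, Ccl3 and Ccl12 in 4 each and Ccl2 in 8, and Cxcl2, Ccl3 and Ccl12 had a median of 0. The 3 cells with the highest core had 0 UMIs of Cxcl2, Ccl2, Ccl7 and Ccl12. The part of handling in these values was not tested. Sparc, a matrix glycoprotein that microglia make, had a UMI in 1 of the 13 cells and in 55 of the 75. Apoc1, an apolipoprotein, had at most 1 UMI in 11 of the 13 and in 12 of the 75.

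Among the class II-high cells, 3 stood apart by nearly lacking Apoe, the apolipoprotein that made up a median of 113061 CPM over the 88 cells. They had 1, 3 and 3 Apoe UMIs among 12524, 18441 and 12636, no more than the level in the T cells above. They also had the 3 highest core shares, 12.8%, 10.6% and 9.20%. All 8 Flt3 UMIs of the 88 cells lay in these 3; Flt3 is the receptor of a growth factor for dendritic cells. Napsa, an aspartic protease, had 7, 23 and 14 UMIs in them, and H2-Oa had all 18 of its class II-high UMIs there. Apoc1, Gpnmb and Trem2, a lipid-sensing receptor of microglia and macrophages, had 0 UMIs in the 3 cells, and C1qa was seen in 1 of them. Of other dendritic cell genes, Zbtb46 and Xcr1 had 1 UMI each in 1 cell, and Clec10a 1 UMI in another. Outside these 3, Clec10a had 6 UMIs in a class II-high cell with 154 Apoe UMIs. Of the 14 dendritic cell genes listed, 4 had no UMI in the 88 cells. Only 3 could be compared between all class II-high cells and the others, of which 1 was higher and 0 lower (median log2 fold 0.47). The 3 cells were chosen after their values were seen and stay unnamed.

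The other 10 class II-high cells carried the general phagocyte genes. C1qa was seen in 10 of 10, with a median of 5245 CPM against 7292 CPM in the 75 cells outside the class II-high set. Trem2 was seen in 10 of 10, with 732 against 1740 CPM. Apoe had a median of 43628 against 117725 CPM. Csf1r, the receptor for the growth factor that macrophages depend on, had one of 786 against 736 CPM. H2-Oa was seen in 0 of 10. Without every cell under 10 Apoe UMIs, the class II list summed to 5975 CPM in the remaining Lpl-low cells. A further such cell, of cluster 3 with 5632 UMIs, had 4 Apoe UMIs, 0 of C1q, Lyz2 and Cd74, and carried 5 UMIs of Ncr1, 3 of Nkg7 and 25 of Ccl5, genes of natural killer cells. It passed the rule and was kept among the 88.

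**Figure D3:**
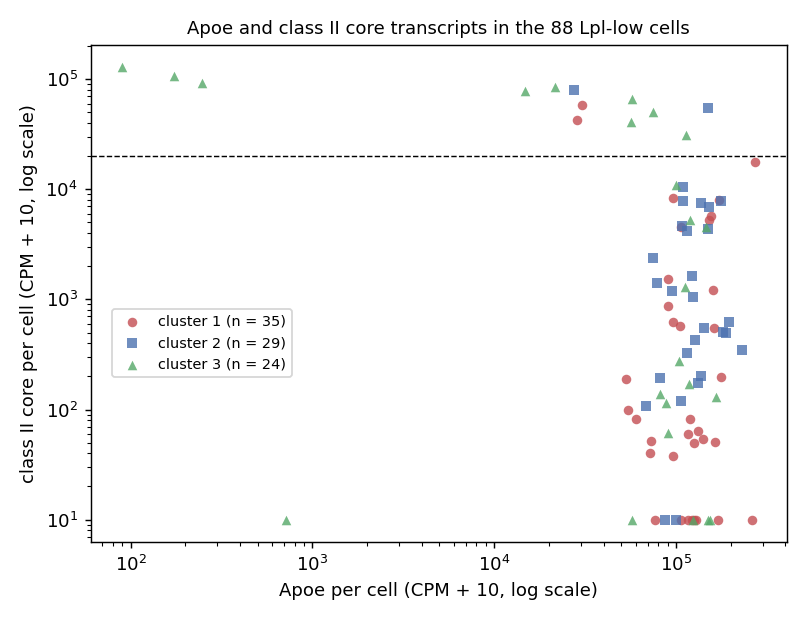
Class II core against Apoe in each of the 88 Lpl-low cells (both CPM with 10 added, log axes), marked by cluster; the dashed line is the limit of 20000 CPM. At the upper left lie the 3 class II-high cells with 1, 3 and 3 Apoe UMIs, and at the lower left the cell with natural killer genes.

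Few of the 88 cells carried Mrc1, Cd163 or Lyve1, the genes named above for border-associated macrophages. Other genes of the border list were seen more widely, with Ms4a7 in 66 cells, Pf4 in 43 and Folr2 in 26. Lyve1, a hyaluronan receptor, and Cd209f had 0 UMIs, and Cd163, the haemoglobin scavenger receptor, had 3 UMIs in 2 cells. F13a1 and Cbr2 had 6 and 5 UMIs. Mrc1, the mannose receptor, had 56 UMIs in 9 cells and 0 in the 53 Lpl-high cells, at least 15.3-fold higher when 3 counts are allowed there. The label of border type is therefore not used as a cell type below, and cells with an Mrc1 UMI are called by that gene.

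Of the 18 border genes 11 could be compared with the Lpl-high cells. Of these 2 were at least 2-fold higher, Mrc1 and Ms4a7, and 1 was lower, with a median log2 ratio of 0.23. This median changed sign with equal weight of cells (−0.02), with the 25% filter on detection (−0.29) and without the class II-high cells (−0.06), so the list has no direction. The lower gene was Pf4, the chemokine platelet factor, at 199 against 519 CPM. The list summed to 1487 CPM (1428 to 1548) in the Lpl-low and 1418 CPM in the Lpl-high cells, so its total was alike. Apart from Mrc1, Ms4a7 and Pf4, its compared genes stayed under 2-fold. Stab1, a scavenger receptor, was at 41.6 against 19.6 CPM (log2 0.80) and Igfbp4, a binding protein of insulin-like growth factors, at 21.7 against 6.80 CPM (log2 0.92). Folr2, a folate receptor, was at 24.8 against 50.6 CPM (log2 −0.80), Gas6, a bridge between dead cells and their receptors, at 140 against 212 CPM (log2 −0.56) and Colec12, a scavenger receptor, at 161 against 220 CPM (log2 −0.43). Dab2, an endocytic adaptor, Maf, a macrophage transcription factor, and Siglec1, a sialic acid receptor, had log2 ratios of −0.15, 0.23 and 0.31.

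The 9 cells with an Mrc1 UMI included 6 class II-high cells, and 7 of the 9 lay in cluster 3. The cell with most border genes had 10628 UMIs and a UMI in 13 of the 18, among them 14 of Mrc1, 2 of Cd163, 2 of Cbr2, 8 of Pf4 and 12 of Dab2, and its class II core was at 66522 CPM. The cell with most Mrc1 had 13598 UMIs and a UMI in 8 border genes, with 15 of Mrc1, 1 of Cd163 and 6 of Stab1, and it carried 181 UMIs of Ccl7, 252 of Cxcl2 and 95 of Ccl2, chemokines for monocytes and neutrophils. This cell alone gave 63.7% of the 284 Ccl7 UMIs and 41.7% of those of Cxcl2 and of Ccl2 in the 88 cells.

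In the 9 cells 164 of 5686 genes (2.88%) were at least 2-fold higher than in the other 79 and 84 (1.48%) lower. Of 13 chemokine genes 9 were higher and 0 lower, and of 8 class II genes 6 were higher and 0 lower. Ccl7, Cxcl2, Ccl2, Ccl12 and Cxcl1 passed the detection filter only through the 9 cells, so the chemokine count is tilted upward. Ccl7, for example, had a UMI in 4 of the 9 cells and in 3 of the 79. Of 17 immediate early and stress genes 17 were higher. Of 11 lipid-laden genes 7 were lower and 0 higher, and Spp1, the secreted matrix protein osteopontin, had a median of 311 against 2676 CPM. Sets this small follow single cells, as the chemokine shares of 1 cell show.

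The lipid-laden list was highest in cluster 1. Its summed level had a median of 27467 CPM in cluster 1, 16005 CPM in cluster 2 and 4237 CPM in cluster 3. Of 12 of its genes compared between cluster 1 and the other cells, 7 were at least 2-fold higher and 0 lower, with a median log2 fold of 1.05. Among all 5900 genes, 30 (0.508%) were higher and 40 (0.678%) lower.

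Gpnmb ranged from 0 to 14854 CPM over the 88 cells, with a median of 575 CPM. Its median was 1416 CPM in cluster 1, 226 CPM in cluster 2 and 98.9 CPM in cluster 3, and it had a UMI in 34 of 35 cells of cluster 1. Fabp5, a fatty acid carrier, ranged from 0 to 10529 CPM, with medians of 2238, 624 and 87.3 CPM in clusters 1, 2 and 3. Lgals3, a lectin that gathers on damaged lysosomes, had medians of 1504, 170 and 324 CPM, of which those of clusters 2 and 3 are near the 230 CPM in the T cells. Plin2, the coat of lipid droplets, was at 837, 352 and 365 CPM. All of these were highest in cluster 1, and their ranges overlapped between clusters. Over the 88 cells, Spearman's rho was 0.65 between Gpnmb and Fabp5 and 0.72 between Lgals3 and Fabp5, and −0.45 between Cd74 and Gpnmb. Gpnmb had a rho of 0.32 with the total UMIs of a cell and Cd74 one of −0.34, and the part of depth was not tested.

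The other leading genes of cluster 1 were Fbxo32, Cstb, Atp6v0d2, Capg and Serpinb6a. Atp6v0d2, a subunit of the proton pump that acidifies lysosomes, had 127 UMIs in 20 cells, 15 of them in cluster 1. Cstb, an inhibitor of cathepsins, had a median of 684 against 165 CPM in the other cells, and Capg, an actin-capping protein, 311 against 64.1 CPM. Ftl1, the light chain of the iron store ferritin, had medians of 14540, 6984 and 5959 CPM in clusters 1, 2 and 3. Fbxo32 encodes a ubiquitin ligase subunit and was seen in 25 of 35 cells of cluster 1 and 19 of 53 others. Serpinb6a, a protease inhibitor, was seen in 29 of 35 and 25 of 53.

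Some lipid genes rested on few cells. Fabp4, a fatty acid carrier of fat cells and macrophages, had 88 UMIs in 11 cells, 10 of them in cluster 1. Mmp12, macrophage elastase, had 157 UMIs in 5 cells, all of cluster 1, and 1 cell held 147 of them. Cd36, a receptor for oxidised lipid, had 18 UMIs in 5 cells. The 2 cells with the most Gpnmb, at 14854 and 11387 CPM, held 33325 and 33898 UMIs, with Lyz2, the macrophage lysozyme, at 61906 and 94637 CPM. They had 7 and 1 UMIs of C1qa, and so belong to the 6 cells under 500 CPM of that gene.

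Against the Lpl-high cells the lipid-laden list as a whole differed little. Of its 14 genes 2 were at least 2-fold higher, Fabp5 and Fabp4, and 1 was lower, Mmp12, with a median log2 ratio of 0.11. The list summed to 24090 CPM (23851 to 24330) in the Lpl-low and 30535 CPM in the Lpl-high cells. Fabp5 was at 1989 against 905 CPM, a ratio of 2.20 (2.06 to 2.35), and Fabp4 at 54.6 against 9.82 CPM. Gpnmb was at 1732 CPM (1668 to 1797) against 995 CPM, a ratio of 1.74 (1.63 to 1.86), but its median per cell was 575 against 607 CPM. Its log2 ratio of 0.79 became 0.10 without the deepest 10% of cells, so it rested on few deep cells. Apoc1 was at 4224 against 4341 CPM (ratio 0.973, 0.939 to 1.01) and Cd63 at 2599 against 2526 CPM (1.03, 0.983 to 1.08). Spp1 was at 10308 against 19122 CPM (log2 −0.89).

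The remaining lipid genes lay close to the other cells. Abca1 and Abcg1, which export cholesterol, had log2 ratios of 0.19 and 0.31, Plin2 of 0.61 and Lgals3 of 0.48. Soat1, which esterifies cholesterol, and Lipa, the lysosomal acid lipase, had log2 ratios of −0.04 and −0.09. Among these 6 genes none passed 2-fold.

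Cluster 2 was led by Sparc, Cst7, Serpine2, Slc1a3, Csf1r, Apoc4, Ramp1 and Cst3. Sparc had medians of 133, 1056 and 0 CPM in clusters 1, 2 and 3, and was seen in 28 of 29 cells of cluster 2. Csf1r had medians of 508, 1423 and 532 CPM, and Cst3, the secreted cathepsin inhibitor cystatin C, 10035, 16100 and 6850 CPM. Cst7, an intracellular cystatin of reactive microglia, had a median of 265 CPM in cluster 2 against 0 in the other cells, and Serpine2, a protease inhibitor, 417 against 92.1 CPM. Slc1a3, a glutamate transporter, was seen in 16 of 29 against 19 of 59 cells, and Ramp1, a co-receptor for the peptide CGRP, in 21 of 29 against 28 of 59. Apoc4, an apolipoprotein, had a median of 673 against 256 CPM. Sparc and Cst7 went together over the 88 cells (Spearman's rho 0.76), and Sparc and Ms4a7 apart (−0.46).

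In cluster 2, 6 of 5700 genes (0.105%) were at least 2-fold higher and 33 (0.579%) lower. Crlf2, a cytokine receptor, and Anxa1, an annexin, had a UMI in 0 of its 29 cells, against 29 and 27 of the other 59. The 12 homeostatic microglia genes had a median log2 fold of 0.51, with 2 higher and 0 lower. Of 11 lipid-laden genes 3 were lower and 0 higher.

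Cluster 3 was nearly without Apoc1. Its mean was 142 CPM in cluster 3 and 5214 CPM in the other 64 cells, a log2 fold of −4.78, with a UMI in 12 of 24 against 60 of 64 cells. Of 6064 genes 102 (1.68%) were at least 2-fold higher in cluster 3 and 41 (0.676%) lower. Cxcl2, Ccl2, Ccl12, H2-Eb1, H2-Aa, Dusp2, H2-Ab1 and Plbd1 led it. Cxcl2 was seen in 11 of 24 against 9 of 64 cells, and Ccl12, a chemokine for monocytes, in 10 of 24 against 5 of 64. Dusp2, a phosphatase of activated immune cells, was seen in 10 of 24 against 7 of 64, and Plbd1, a lysosomal phospholipase-like protein, in 12 of 24 against 3 of 64. Cluster 3 thus joined 9 class II-high cells to 15 others poor in Apoc1.

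These 15 cells, a set made after the values were seen, had a median of 17312 UMIs, and 1 of them was the cell with natural killer genes. Ms4a7, a tetraspan-type membrane protein of macrophages, was seen in 14 of them with a median of 1201 CPM, against 217 CPM in the other 73 cells. Fcrls, a microglial Fc receptor-like gene, was seen in 13 of 15 against 24 of 73 cells. Camk2n1, an inhibitor of a calmodulin-dependent kinase, was seen in 11 of 15 against 2 of 73. Apoc1 had a median of 51.1 against 3137 CPM. Of 6078 genes 34 (0.559%) were at least 2-fold higher and 34 (0.559%) lower. Here 4 of 6 class II genes were lower and 0 higher (median log2 fold −2.90). This was built in, because the class II-high cells were left out of the 15 and all stand among the other 73. The class II list summed to a median of 332 CPM in the 15 cells, against 290 CPM in cluster 1 and 1251 CPM in cluster 2. Of 9 chemokine genes 2 were lower and 0 higher (median −0.45). In these cells Ms4a7, counted among the border genes, was found beside the microglial genes Fcrls and Tmem119, and Mrc1 was seen in 2 of the 15. Tmem119 had a UMI in 11 of 15 against 14 of 73 cells, while Sparc had one in 4 of 15 against 52 of 73. Of 11 homeostatic microglia genes 2 were higher and 1 lower (median log2 fold 0.21).

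**Figure D4:**
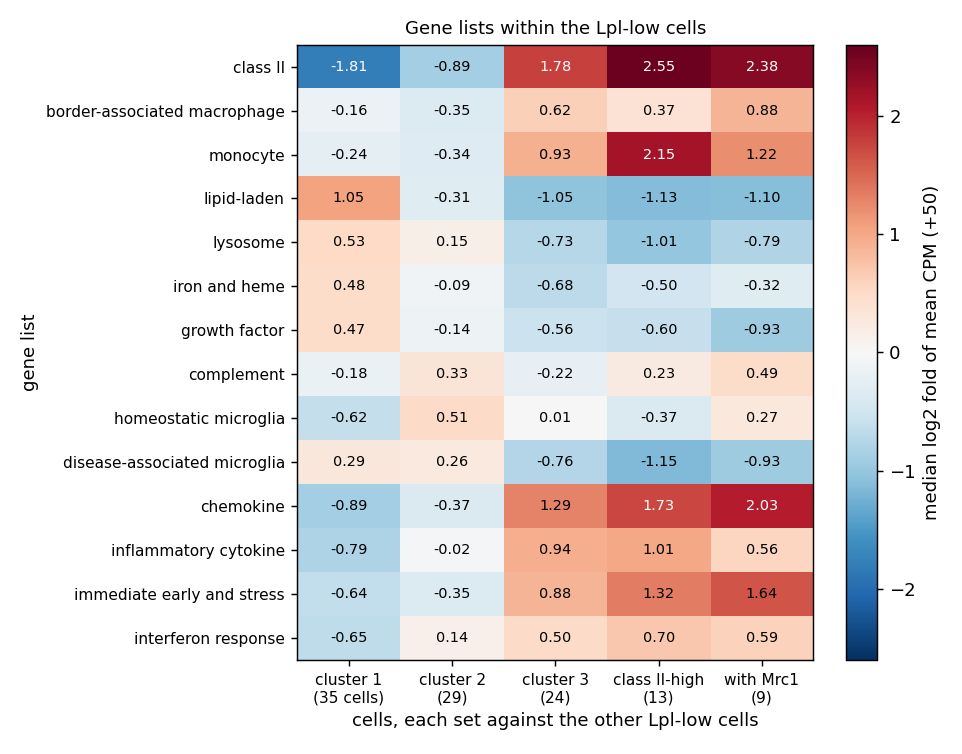
Median log2 fold of each gene list (mean CPM with 50 added) in clusters 1, 2 and 3, in the 13 class II-high cells and in the 9 cells with Mrc1, each against the other Lpl-low cells; colour gives the median. The lipid-laden median is 1.05 in cluster 1 and −1.13 in the class II-high cells, where the chemokine median is 1.73.

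Beyond class II, several other genes were higher in the Lpl-low than in the Lpl-high cells. Ms4a7 was at 603 CPM (566 to 642) against 125 CPM, a ratio of 4.81 (4.08 to 5.71), with a UMI in 66 of 88 and 24 of 53 cells. Without the class II-high cells its log2 ratio was 2.20, beside 2.18 with them. Ahnak, a large scaffold protein, was at 109 against 3.77 CPM and seen in 30 against 5 cells. Ifitm3, an interferon-induced membrane protein, was at 145 against 21.9 CPM, and Ms4a6b, a relative of Ms4a7, at 59.0 against 9.82 CPM. Mndal, an interferon-induced gene, had 53 UMIs against 1. Of 14 monocyte genes 6 could be compared, with a median log2 ratio of 1.67, and 5 passed 2-fold upward and 0 downward. Ccr2 passed the 10% filter only through the Lpl-low cells, with a UMI in 9 of 88 against 0 of 53, so this count is tilted upward. Lyz2 was at 22305 against 8063 CPM (log2 1.47), and seen in nearly all cells.

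Several of the highest genes had no UMI in the Lpl-high cells. Ccl2 had 228 UMIs in 17 Lpl-low cells, at least 62.5-fold higher when 3 counts are allowed there, and 1 cell gave 41.7% of them. Plbd1 and Napsa had 78 and 69 UMIs in 15 cells each, at least 21.4-fold and 18.9-fold higher. Ccr2 had 40 UMIs in 9 cells. Hspa1b, a heat shock protein, had 139 UMIs in 14 cells, against 5 UMIs. Each of these was thus seen in under 20 of the 88 cells.

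Lower in the Lpl-low cells were many cytokines and chemokines. Tnf, the cytokine tumour necrosis factor, was at 14.3 against 373 CPM (log2 −3.98), and Cxcl1, a chemokine for neutrophils, at 30.4 against 517 CPM (log2 −3.71). Il23a, a cytokine subunit, had 0 UMIs against 107, at least 43.4-fold lower when 3 counts are allowed. The 12 chemokine genes had a median of −1.28, with 8 past 2-fold downward and 2 upward, and the 10 inflammatory cytokine genes split into 5 lower, 0 higher and 5 between (median −0.99). Cxcl2 was at 375 against 2059 CPM (log2 −2.43). Without the class II-high cells its log2 ratio was −4.68, so most of the remaining Cxcl2 lay in those cells. The other genes at the low end were Tnfsf9, Gpr84, Adamts1, Cxcl10, Tmem163, Gem, Postn, Ank, Nes, Tnfrsf11b and Ch25h, with log2 ratios from −3.19 to −2.14. Gpr84, a receptor for medium-chain fatty acids, was at 19.2 against 199 CPM, and Ank, a phosphate and ATP exporter, at 54.0 against 303 CPM.

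**Figure D5:**
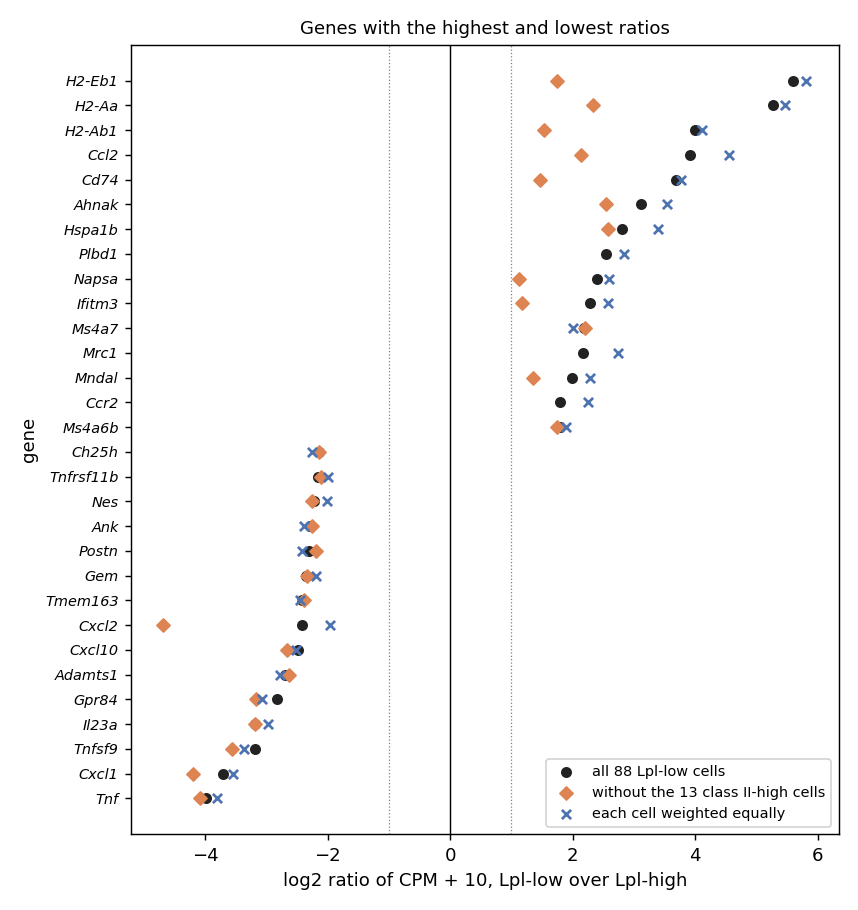
Log2 ratio of CPM with 10 added, Lpl-low over Lpl-high, for the genes with the highest and the lowest ratios, from all 88 cells and under the alternatives named in the legend. H2-Eb1 goes from 5.60 with all cells to 1.75 without the class II-high cells, while Ms4a7 goes from 2.18 to 2.20.

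These counts moved with how low levels were treated. With 50 CPM added in place of 10 the numbers of genes higher and lower were 18 and 49, with 1 CPM added 467 and 434, and with each cell thinned to 5000 UMIs 277 and 227. The higher genes thus outnumbered the lower ones at 1 CPM and after thinning, and were fewer with 10 or 50 CPM added. Both sides come from 1 library.

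Other programmes differed less from the Lpl-high cells. Of 19 lysosomal genes 1 was higher and 0 lower (median log2 ratio −0.11), and of 9 complement, 6 Fc receptor and 9 uptake receptor genes 0 passed 2-fold. Of 13 homeostatic microglia genes 2 were lower and 0 higher (median −0.60), and Sparc was at 639 against 1702 CPM. Of 17 disease-associated microglia genes 4 were lower and 1 higher (median −0.53). Apoe itself was at 108439 against 80730 CPM. A single cell of cluster 3 with 39119 UMIs held 59 of the 69 Mki67 and 91 of the 96 Top2a UMIs, both genes of dividing cells.

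Transcripts of other cell types were low in the 88 cells. The 9 myelin genes summed to 313 CPM against 331 CPM in the Lpl-high cells. Fibroblast genes summed to 41.0 against 185 CPM and endothelial genes to 31.0 against 118 CPM. Astrocyte genes summed to 99.9 against 205 CPM and oligodendrocyte precursor genes to 34.1 against 136 CPM. Higher than in the Lpl-high cells were B cell genes, at 39.7 against 19.6 CPM, and neutrophil genes, at 142 against 113 CPM. Among the class II-high cells the B cell sum per cell had a median of 237 CPM. Of 12 T and natural killer cell genes 4 were detected, at 91.9 CPM in sum. The list holds Cd3e, Cd3d, Cd3g, Trac, Trbc1 and Trbc2, by which the rule left cells out, so their absence is no finding. Most of the sum was Ccl5, with 138 UMIs in 8 cells, 86 of them in 1 cell of cluster 1. Pericyte and erythroid genes summed to 1.24 and 0.62 CPM, under what a count of 0 allows.

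The uninjured library offers 4 cells of this depth, whose values can only be set side by side. The cell with 6406 UMIs had 8 UMIs of Tmem119 and 10 of P2ry12, both genes of resting microglia, and no core class II UMI. The cell with 8863 UMIs had a class II core of 2.31% of its UMIs, with 9 UMIs of Mrc1, 6 of Cd163, 8 of F13a1, 3 of Lyve1 and 14 of Folr2. The cell with 9567 UMIs had a core of 4.20% with 769 UMIs of Apoe and 56 of C1qa. The cell with 11100 UMIs held 10194 UMIs of haemoglobin genes and none of Apoe or C1q. A class II core above the 20000 CPM limit was thus also present in 2 deep uninjured cells, 1 of which carried the border genes Cd163, F13a1 and Lyve1 together, whereas Gpnmb and Apoc1 had 0 UMIs in all 4.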

How the data were processed

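Cells of dissociated mouse optic nerve were profiled with 10x 3' v2 droplet chemistry. The submitters' processing notes name bcl2fastq 2.17.1.14, Cell Ranger 1.3, Seurat 4.0.3 and build mm10, and no source used here names the annotation release. The deposited table, made by the authors, gives raw UMI counts (whole numbers, not normalized) with each cell's condition in a line of its own. Per the series' design text they kept 778 macrophages and microglia with 200 to 6500 genes; how these were recognised was not stated. The libraries shared 0 barcodes. Of 31053 gene rows 14428 had a UMI. Names turned into dates (26 rows, 0.0443% of the Lpl-low UMIs) stayed in totals only.

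Levels are CPM of summed UMIs with exact Poisson intervals, and ratios carry exact conditional binomial intervals. Lpl-low and Lpl-high cells were compared on log2(CPM + 10) for genes seen in at least 10% of either side. Sets within the 88 cells were compared on mean CPM with 50 added, for genes seen in at least 25% of either side. A gene can thus enter only through the side where it is high, which tilts counts and medians. Called means 2-fold. Cells were clustered with leidenalg 0.10.2 (2000 variable genes, 20 principal components, 15 neighbours, resolution 0.5). Python 3.11.15, numpy 2.4.6, scipy 1.17.1, pandas 2.3.3, igraph 0.11.9 and matplotlib 3.10.9 were used, and the scripts were tested on simulated data.

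Members and lists were chosen with earlier results of these data known. Genes were named by rule: the 3 markers, the class II, border and lipid-laden genes seen in at least 10% of the cells, the 15 highest and 15 lowest ratios, the 8 leading genes of each cluster and up to 4 genes of other lists. Other genes, single cells, the class II limit of 20000 CPM, the cells with Mrc1 and the split of cluster 3 were chosen after their values were seen. Alternatives changed the pseudocount, the detection filter, the limits on depth and Lpl, cell weights, thinning and the clustering. How the clusters fared at other clustering settings is not given here, so they are a description at the stated settings.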

Additional observations from a re-analysis of the deposited data

How the results depend on the processing

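No paired analysis was possible because each group has 1 library. Of 31 gene ratios under 377 alternatives 311 moved by under 1.5-fold, 66 moved further and 0 changed sign; 10 genes past 2-fold fell short of it with 50 CPM added. Of 24 list medians under 312 alternatives 303 moved by under 1.5-fold and 9 further. In 28 cases, from 8 lists whose medians were at most 0.31 in size, the median changed sign. The number of genes higher went from 88 to 18 with 50 CPM added, 467 with 1 CPM added, 56 among genes seen in at least 25% of cells and 277 after thinning to 5000 UMIs. The number lower went from 127 to 49, 434 and 227 with 50 CPM added, 1 CPM added and thinning. The class II median of 1.16 became 0.47, 2.88, 3.84 and 4.15 with 50 CPM added, 1 CPM added, the 25% filter and thinning, and the monocyte median of 1.67 became 0.70 with 50 CPM added. With the 25% filter and thinning the dendritic cell median went from 0.21 to −0.49 and −0.64, and that of the cell cycle from −0.34 to −0.96 and −0.99; fewer genes were compared there. The class II sum of 8810 CPM became 12445 with equal weight of cells, 8658 from 4000 UMIs on, 11021 and 7988 with Lpl under 250 and 1000 CPM, 10982 without the deepest 10% of cells, 12702 thinned, 5975 without cells under 10 Apoe UMIs and 1631 without class II-high cells. The lipid-laden sum of 24090 CPM became 19871 with equal weight, 24525 from 8000 UMIs on, 19822 with Lpl under 250 CPM, 20073 without the deepest cells, 19875 thinned, 24812 without cells under 10 Apoe UMIs and 26153 without class II-high cells. The border sum of 1487 CPM became 1608 with Lpl under 250 CPM. The cause of these shifts was not tested. Leaving out cells by Apoe or class II was added after seeing the data.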
